A study of Mus musculus with 6 samples.

Results

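The regions described here lie in 4 windows of the mouse genome (mm9 build) chosen as clusters of V2r vomeronasal receptor genes. The windows run from 92.0 to 94.1 Mb of chromosome 7, from 18.3 to 20.9 Mb of chromosome 17, from 109.2 to 109.9 Mb of chromosome 5 and from 63.9 to 64.7 Mb of chromosome 3. The members were chosen by position: each is a run of 3 or more array probes whose starts lie at most 500 bp apart. This gave 76 regions of 22574 on the whole array, with 33 on chromosome 7, 24 on chromosome 17, 11 on chromosome 5 and 8 on chromosome 3. They hold 520 of the 528 probe positions in the windows, and the other 8 stood too far apart to form a run. No probe is paired with a gene in the files, so the windows carry the V2r name from the choice of coordinates, and a region is named below by its chromosome and its order in its window.

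DNA was taken from the hypothalamus of mouse offspring at 16 weeks of age. Methylated DNA was pulled down with an antibody (MeDIP), labelled with Cy5 and put on a tiling array together with Cy3-labelled input DNA from that sample. The study had 3 arrays of offspring whose mothers received inulin, a fermentable plant fibre, and 3 arrays of offspring of obese mothers, which the labels also describe as fed a high fat diet. The names given to the inulin arrays join inulin to the abbreviation of the obese group, while the titles say nothing of obesity in the inulin mothers. Strain, genotype, sex and litter are not given in the sources used here, so a p-value here covers only how far these samples vary. All 3 inulin arrays shared 1 slide and the obesity arrays lay on 2 others, so group and slide cannot be told apart. The MeDIP over input ratio is given as a log2 value with each array's median at 0, and differences are inulin minus obesity. In a tissue of mixed cells, a change in the share of cells and a change in methylation per cell cannot be told apart.

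V2r genes (Vmn2r in mouse) encode receptors of the G protein-coupled class with a large extracellular domain, which sensory neurons in the basal layer of the vomeronasal organ use to detect peptide and protein pheromones. Each basal neuron expresses a few of these receptors, and the genes lie in tandem clusters that hold many pseudogenes. The hypothalamus receives vomeronasal signals through the accessory olfactory bulb and the amygdala, but the vomeronasal organ itself was not sampled here. The MeDIP antibody binds methylated cytosine, which in most mammalian tissue stands before guanine (CpG), so DNA with few CpGs gives little MeDIP signal even where it is fully methylated.

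RefSeq (GRCm38.p6) lists 272 Vmn2r genes, of which 148 are pseudogenes, with 105 on chromosome 7, 52 on chromosome 17, 19 on chromosome 5 and 18 on chromosome 3. Their promoters are poor in CpG. Over 97 promoters of 96 Vmn2r genes on these 4 chromosomes, the 300 bases around the gene's start held a median of 1 CpG, and 26 promoters held none. All 32851 mouse promoters of the same table and length held a median of 7, and 5.43% held none. The median by chromosome was 1 on chromosomes 7 and 17, 2 on chromosome 5 and 2.5 on chromosome 3. Vomeronasal V1r and olfactory receptor promoters also had a median of 1. The exception was 1 of the 2 entries of Vmn2r29, which had 23. A promoter of typical CpG count is shown for each chromosome to show how few CpGs it holds, with each CpG in capitals and the last 50 bases lying after the start. For chromosome 7, which holds several separate runs of these genes, it was taken from Vmn2r65 to Vmn2r79, a run with a median of 1 CpG over 13 promoters. These sequences come from another build than the array and were not matched to any probe. The search was for the letters CG, whose count is the same on both strands.
Vmn2r65 (chromosome 7): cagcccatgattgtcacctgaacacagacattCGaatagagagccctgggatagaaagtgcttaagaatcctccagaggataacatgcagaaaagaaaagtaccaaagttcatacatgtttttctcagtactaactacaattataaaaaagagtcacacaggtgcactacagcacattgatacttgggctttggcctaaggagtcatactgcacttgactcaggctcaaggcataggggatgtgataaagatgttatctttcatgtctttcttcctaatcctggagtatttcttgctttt
Vmn2r90 (chromosome 17): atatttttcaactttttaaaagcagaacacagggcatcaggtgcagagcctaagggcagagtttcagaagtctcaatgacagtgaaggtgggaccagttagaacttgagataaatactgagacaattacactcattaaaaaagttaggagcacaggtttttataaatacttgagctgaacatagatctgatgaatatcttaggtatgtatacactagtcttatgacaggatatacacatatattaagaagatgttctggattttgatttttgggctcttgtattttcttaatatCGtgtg
Vmn2r9 (chromosome 5): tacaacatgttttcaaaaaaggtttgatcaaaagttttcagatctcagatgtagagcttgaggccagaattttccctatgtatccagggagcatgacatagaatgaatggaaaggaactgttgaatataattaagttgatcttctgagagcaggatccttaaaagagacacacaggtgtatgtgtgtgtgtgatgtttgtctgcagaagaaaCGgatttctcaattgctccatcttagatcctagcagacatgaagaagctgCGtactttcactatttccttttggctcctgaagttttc
Vmn2r3 (chromosome 3): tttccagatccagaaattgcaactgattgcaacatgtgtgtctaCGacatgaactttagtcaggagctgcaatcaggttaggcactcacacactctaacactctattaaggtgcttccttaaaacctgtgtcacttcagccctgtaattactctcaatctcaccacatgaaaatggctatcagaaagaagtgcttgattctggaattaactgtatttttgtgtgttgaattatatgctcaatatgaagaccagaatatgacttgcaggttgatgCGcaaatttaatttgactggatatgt
Vmn2r65 and Vmn2r90 hold 1 CpG each in these 300 bases, and Vmn2r9 and Vmn2r3 hold 2. Vmn2r3 belongs to the subfamily that basal vomeronasal neurons express broadly, alongside a receptor of the other subfamilies.

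The V2r regions were among the least MeDIP-enriched of the array. Their median ratio over the 6 arrays was -1.38 on the log2 scale, against -0.055 for all regions, and 75 of 76 lay below 0. Region 14 of chromosome 7 (93394216 to 93395761) was the exception at 0.19, with MeDIP above background on all 6 arrays at 1 of its 7 positions and the input at 3. Of the 76, 70 fell in the lowest 20% of all regions by ratio and 67 in the lowest 20% by MeDIP signal. In the input, 38 lay in the lowest 20%. The median centred level of the MeDIP channel was -2.22 and that of the input channel -0.63, so both lay below their array's median and MeDIP further below.

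The windows differed in level. Chromosome 5 had the lowest median ratio, at -1.92, followed by chromosome 17 at -1.54, chromosome 7 at -1.20 and chromosome 3 at -0.87. On single arrays, the chromosome 7 window had medians of -1.12, -1.02 and -0.89 in the inulin group, against -1.18, -1.70 and -1.33 in the obesity group. The chromosome 17 window stood at -1.46, -1.49 and -1.16 in the inulin group, against -1.53, -1.91 and -1.72 in the obesity group. The 4 windows kept this order on each of the 6 arrays. For the chromosome 5 window the medians were -1.84, -1.86 and -1.49 in the inulin group, against -1.98, -2.35 and -1.98 in the obesity group. Chromosome 3, the least depleted window, had -0.90, -0.71 and -0.82 in the inulin group, against -1.002, -1.06 and -1.21 in the obesity group. In each window the 3 inulin arrays lay above the 3 obesity arrays. These medians are a description over neighbouring regions and carry no test.

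**Figure D1:**
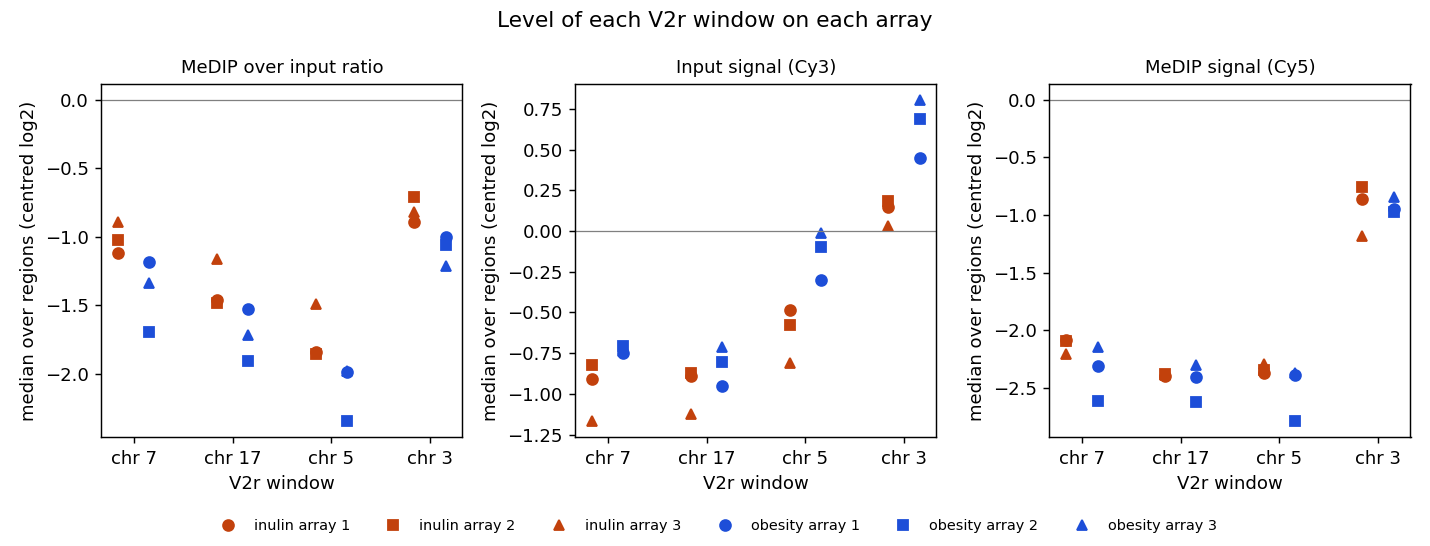
Median over the regions of each V2r window on each array, as centred log2 MeDIP over input ratio (left), input signal (middle) and MeDIP signal (right), with inulin arrays in orange left of obesity arrays in blue. In the ratio the inulin arrays lie above the obesity arrays in all 4 windows, in the input they lie below on chromosomes 7, 5 and 3, and in MeDIP the groups overlap in each window.

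The probes in these windows also differ from the rest of the array. Their mean length was 56.9 bp against 49.2 bp over the whole array, and 57.3% of them were 60 bp long, against 13.0%. The MeDIP signal was well above background on all 6 arrays at 35.0% of the V2r positions, against 73.6% of the array, and on no array at 46.2%, against 12.5%. For the input the share above background on all 6 arrays was 80.2%, against 91.9%. Chromosome 3 stood apart within the windows, with MeDIP above background on all 6 arrays at 63.2% of positions, against 36.2% on chromosome 7, 32.6% on chromosome 5 and 28.7% on chromosome 17. Over the 76 regions, mean probe length correlated with the MeDIP level at a Pearson r of -0.74. With the input level it correlated at -0.48 and with the ratio at -0.44. These values describe regions that share arrays and neighbours.

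The ratio was higher in the inulin group across the V2r windows. By limma with Benjamini-Hochberg adjustment over all 22574 regions, 27 of 76 regions (35.5%) passed the adjusted threshold of 0.05 with a higher ratio in the inulin group, where the background over the whole array was 5.61%. None passed with a lower ratio, where the background was 1.81%. An unadjusted p under 0.05 was found at 51 of the 76 (67.1%), 1 of them in the lower direction, against 28.6% of all regions. The difference was positive in 72 of 76 regions, with a median of 0.40, against 0.033 for all regions. The groups did not overlap, with inulin higher, at 41 of 76 regions (53.9%), against 20.8% of all regions. By window, 11 of 33 regions passed on chromosome 7, 10 of 24 on chromosome 17, 5 of 11 on chromosome 5 and 1 of 8 on chromosome 3. Median differences were 0.29, 0.44, 0.43 and 0.28 in the same order. Among all regions in the lowest 20% by ratio, 17.7% passed as higher, against 26 of the 70 V2r regions there (37.1%), and whether that gap exceeds the spread was not tested. None of the 27 passed when any 1 of the 3 inulin arrays was left out, and neither did any other of the 22574 regions. Leaving out obesity array 3 left 13 (17.1%), against 2.29% of all regions passing as higher. With slide as a random block no region of the whole array passed.

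**Figure D2:**
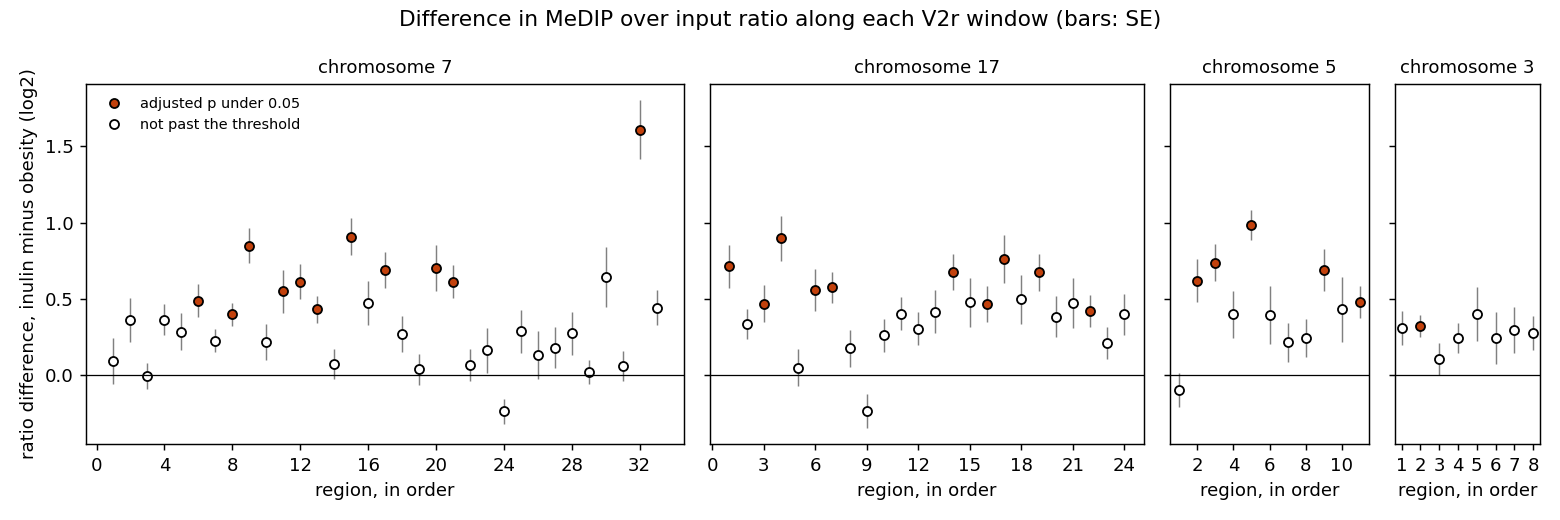
Difference in log2 MeDIP over input ratio, inulin minus obesity, for the 76 regions in their order along each window, with the standard error as bars and the 27 regions past the adjusted threshold filled. The points lie above 0 in 72 of 76 regions, and the highest, at 1.61, is region 32 of chromosome 7.

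For comparison, in a stretch chosen as an olfactory receptor cluster, at 85 to 90 Mb of chromosome 2, 70 of 227 regions (30.8%) passed as higher, with a median difference of 0.35 and a median ratio of -0.91. Another stretch of low ratio, at 20 to 24 Mb of chromosome 7, had 8 of 116 regions (6.90%) past the threshold, a median difference of 0.13 and a median ratio of -2.83. It is unlike the V2r windows in level, with a median input of 2.86 and MeDIP of 0.26, against -0.63 and -2.22. The chromosome 2 stretch stood at -1.34 in the input and -2.26 in MeDIP. The MeDIP signal was above background on all 6 arrays at 35.1% of positions in the chromosome 2 stretch and at 87.7% in the chromosome 7 stretch, against the 35.0% of the V2r windows.

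Differences past the threshold ran from 0.32 to 1.61, with a median of 0.62, and adjusted p from 0.0137 to 0.0496 (limma). The largest was region 32 of chromosome 7 (93942782 to 93944069, 6 probes). Its ratio was -0.52, -0.55 and -0.11 in the inulin group, against -1.86, -2.47 and -1.68 in the obesity group. The groups stood more than 1 log2 unit apart at their nearest arrays. The difference was 1.61 ± 0.19 (SE), with a limma adjusted p of 0.0145. Its size depended on the processing, at 0.45 with normexp background correction and 0.34 on the unknown scale of the authors' deposited table, both past the threshold by limma. In the input channel the same region read -2.39, -2.31 and -2.73 in the inulin group, against -1.43, -1.21 and -1.45 in the obesity group. In the MeDIP channel it read -2.85, -2.80 and -2.80 in the inulin group, against -3.23, -3.60 and -3.04 in the obesity group. The input difference was -1.12 (limma adjusted p = 0.0259) and the MeDIP difference 0.47 (limma adjusted p = 0.155), so the input moved by more than MeDIP did. The input was above background on all 6 arrays at only 3 of the 6 probes. It was above background on any inulin array at 3 and on any obesity array at 5, so its difference rests partly on background readings.

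The probes of that region did not move alike. Only 2 of its 6 positions had MeDIP above background on all 6 arrays. The first, a probe of 45 bp at 93943411 to 93943455, read -1.67, -1.43 and -1.07 in the inulin group, against -1.58, -1.87 and -1.60 in the obesity group, and the groups overlapped. The second, a probe of 60 bp at 93943805 to 93943864, read -0.52, -0.83 and -0.46 in the inulin group, against -1.90, -3.25 and -1.74 in the obesity group (difference 1.70 ± 0.38 (SE), limma adjusted p = 0.041 over all positions). At the other 4 positions, all of 60 bp, no array had MeDIP well above background.

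Region 5 of chromosome 5 (109487974 to 109489394, 7 probes) followed in size. It read -1.69, -1.88 and -1.52 in the inulin group, against -2.64, -2.75 and -2.65 in the obesity group. All 3 obesity arrays lay close together and below every inulin array. The difference was 0.98 ± 0.10 (SE, limma adjusted p = 0.0137), with an input difference of -0.62 and a MeDIP difference of 0.34, neither past its own threshold. Region 15 of chromosome 7 (93417835 to 93419444, 8 probes) read -0.41, -0.45 and -0.33 in the inulin group, against -1.08, -1.59 and -1.25 in the obesity group. Its difference of 0.91 ± 0.12 (SE, limma adjusted p = 0.0146) came with an input difference of -0.59, which passed as lower (limma adjusted p = 0.0495). Within it, the 4 positions with both channels above background on all 6 arrays differed by -0.15, -0.07, 0.29 and 0.58, and none of the 4 passed the threshold.

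On chromosome 17 the largest difference was in region 4 (18717422 to 18719094, 8 probes). Its ratio was -1.73, -1.56 and -1.27 in the inulin group, against -2.16, -2.68 and -2.41 in the obesity group, with a difference of 0.90 ± 0.15 (SE, limma adjusted p = 0.0197). MeDIP was above background on all 6 arrays at 1 of its 8 positions. Region 17 (20554827 to 20556456, 8 probes) read -1.78, -1.78 and -1.36 in the inulin group, against -2.20, -2.72 and -2.29 in the obesity group. Here the difference of 0.76 was almost all in the input, which differed by -0.69 while MeDIP differed by 0.05. Region 1 (18414072 to 18415711, 8 probes) had a difference of 0.71 ± 0.14 (SE, limma adjusted p = 0.0266), with its inulin arrays at -1.27, -1.32 and -0.89 against -1.72, -2.14 and -1.76 in the obesity group.

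The remaining 4 of the 10 largest were on chromosomes 7 and 5. Region 9 of chromosome 7 (92763153 to 92764437) differed by 0.85, and none of its 7 positions had MeDIP above background on all 6 arrays. Region 3 of chromosome 5 (109281093 to 109282657) differed by 0.74, with an input difference of -0.64 (limma adjusted p = 0.0499) and a MeDIP difference of 0.08. At region 20 of chromosome 7 (93534669 to 93535409, 4 probes) the difference was 0.70, with negative differences in both channels, -0.94 in the input and -0.25 in MeDIP, neither past its threshold. Region 17 of chromosome 7 (93469970 to 93471744) was of the opposite kind, with 0.69 in the ratio, -0.17 in the input and 0.50 in MeDIP. Region 11 of chromosome 7 (93024465 to 93025231) also passed, but no position in it had MeDIP above background on any array, so no size is given.

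**Figure D3:**
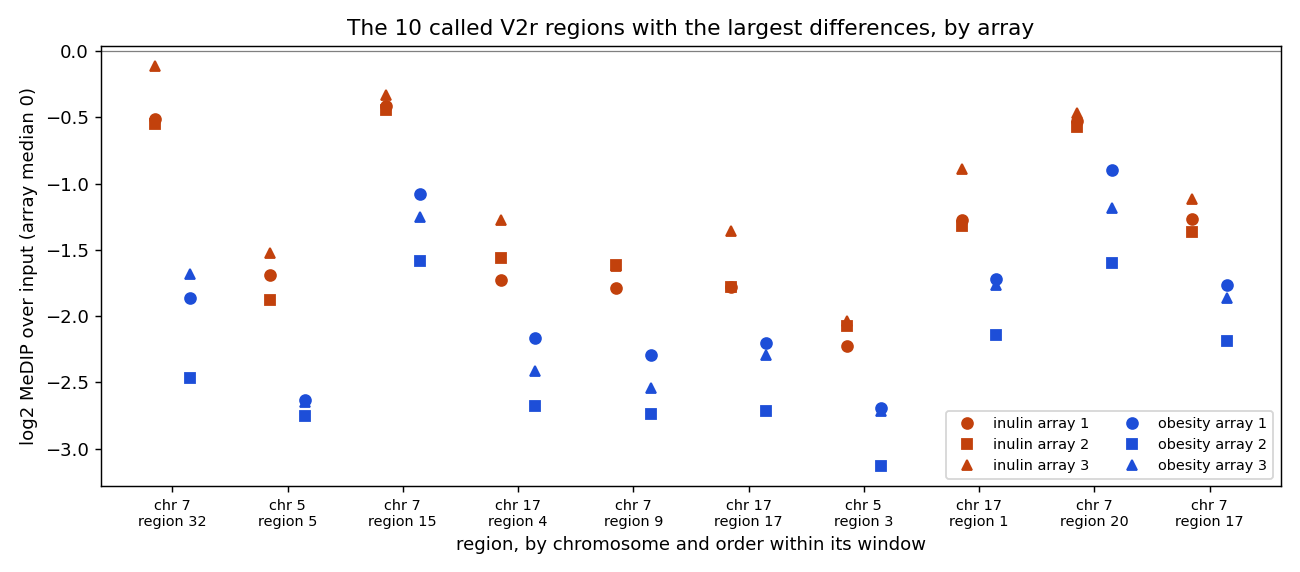
Log2 MeDIP over input ratio on each array at the 10 regions with the largest differences among those past the threshold, with the inulin arrays in orange left of the obesity arrays in blue. The groups do not overlap at any of the 10, and all values lie below the array median of 0.

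No region passed in the other direction under median centring, and 4 had negative differences. Region 24 of chromosome 7 (93613908 to 93614375, 3 probes) read -1.04, -1.01 and -0.88 in the inulin group, against -0.62, -0.78 and -0.82 in the obesity group. Its difference of -0.24 had a limma adjusted p of 0.102. Region 9 of chromosome 17 (19713322 to 19714598) differed by -0.23, with a limma adjusted p of 0.197, and region 1 of chromosome 5 (109223883 to 109225627) by -0.10. With arrays brought to equal spread these 3 regions passed as lower in the inulin group, by -0.43, -0.58 and -0.54 in the same order (limma adjusted p = 0.0286, 0.0399 and 0.0373). Region 24 also passed as lower with quantile normalization (-0.44), array weights (-0.35) and the authors' deposited table (-0.30), and region 9 with array weights (-0.26). On chromosome 3 all 8 differences were positive under median centring, the lowest being 0.10 in region 3 (64213681 to 64214150) and the highest 0.40 in region 5 (64363441 to 64363940, limma adjusted p = 0.167). Region 3 turned negative under 7 of the other settings, to -0.24 with the median of probes.

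Extremes of level fell on both sides of the threshold. The regions with the lowest ratio of their windows were, on chromosome 5, region 2 (109237274 to 109238979), at -2.42 ± 0.23 with inulin and -3.04 ± 0.23 with obesity (SD over 3 arrays each, as for the values that follow; limma adjusted p of the difference 0.0345), and, on chromosome 7, region 13 (93319735 to 93321302), at -2.69 ± 0.12 with inulin and -3.12 ± 0.11 with obesity (limma adjusted p = 0.029). Region 10 of chromosome 17 (19796358 to 19797827), the lowest there, stood at -1.98 with inulin and -2.24 with obesity and did not pass. Its difference of 0.26 turned to -0.21 with equal spread, -0.11 in the authors' deposited table, -0.50 with both channels above background and -0.13 with quantile normalization. Region 19 (20637963 to 20639412) had the highest mean ratio on chromosome 17, but none of its 6 positions had MeDIP above background on all 6 arrays and 2 had the input, so its level rests mostly on background readings. It was among the 27, and with input above background its difference was 0.14 (limma adjusted p = 0.195). Region 14 of chromosome 7, above 0 on all 6 arrays, had 0.22 ± 0.15 with inulin and 0.15 ± 0.11 with obesity, and did not pass (limma adjusted p = 0.663). Region 10 of chromosome 5 (109758713 to 109759821) and region 4 of chromosome 3 (64311257 to 64312697), the highest of their windows, did not pass either.

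Non-overlapping regions with inulin higher, 53.9% of all V2r regions and 18 of 24 on chromosome 17, against the 20.8% of the whole array, formed runs. Whether the runs exceed what these shares alone would give was not tested. On chromosome 17, 7 regions in a row between 20319606 and 20639412 had inulin above obesity with no overlap, by 0.42 to 0.76, and 4 of them passed the threshold. A run of 4 regions between 18414072 and 18719094 differed by 0.33 to 0.90, with 3 past the threshold. Chromosome 7 held runs of 6 regions between 92160031 and 92764437, of 3 between 93024465 and 93321302 and of 3 between 93417835 and 93471744. The median gap between regions was 72772 bp on chromosome 17 and 47540.5 bp on chromosome 7.

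The input channel held much of the difference. Input DNA is not enriched, and its group difference was negative in 62 of 76 regions, with a median of -0.23, against 0.043 for all regions. Without inulin array 3 the median was -0.13 and 23 of 76 were positive, and with normexp it was -0.13. An unadjusted p under 0.05 by limma was found at 32 of the 76 (42.1%), against 24.4% of all regions. By limma, 5 regions passed with a lower input in the inulin group, against a background of 0.899%, and none passed as higher, against 1.24%. These 5 were regions 15 and 32 of chromosome 7, regions 3 and 7 of chromosome 5 and region 5 of chromosome 3. At region 7 of chromosome 5 (109620628 to 109622254) the input read -0.11, -0.16 and -0.26 in the inulin group, against 0.37, 0.45 and 0.39 in the obesity group (limma adjusted p = 0.0275). Its MeDIP signal moved the same way, by -0.38, and the ratio differed by 0.22 without passing. The inulin group lay below with no overlap at 31 of 76 regions (40.8%), against 12.2% of all regions. The chromosome 2 stretch was similar, with a negative input difference in 175 of 227 regions and a median of -0.19. Its inulin arrays lay below with no overlap at 33.9% of regions. Leaving out any 1 array ended all 5 input calls. Calls as lower over the whole array fell as well, from 203 to 4, 4 and 23 without inulin arrays 1, 2 and 3. Without obesity arrays 1, 2 and 3 they numbered 5, 53 and 44.

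The MeDIP channel differed less. None of the 76 regions passed in either direction by limma, against a background of 0.253%. An unadjusted p under 0.05 was found at 10 (13.2%), fewer than the 21.0% of all regions. The median difference was 0.13, against 0.066 for all regions, and its size and sign depended on the processing. It was -0.038 with quantile normalization, where 29 of 76 were positive, against -0.0055 for all regions. With equal spread it was 0.0026, below the 0.062 of all regions, and with normexp 0.030, against 0.022. Restricting to positions with MeDIP above background on all arrays gave 0.050 over 70 regions, against 0.019 for all regions. Leaving out obesity array 2 gave 0.033, against 0.044 for all regions. The groups did not overlap, with inulin higher, at 17 of 76 regions (22.4%), against the same 22.4% of all regions. Among the 27 regions past the threshold in the ratio, the input was lower in 26, with a median of -0.46, and MeDIP was higher in 21 and lower in 6, with a median of 0.17. As the 27 were picked for a higher MeDIP over input ratio, these directions are partly set by that choice. The input moved by more than MeDIP in 22 of these 27 (81.5%) and in 47 of the 76 (61.8%), against 49.1% of all regions and 49.6% of all regions past the threshold as higher. A clear exception was region 16 of chromosome 17 (20481089 to 20482809), where the input differed by 0.02 and MeDIP by 0.47. Region 14 of chromosome 17 (20371337 to 20373029) showed the reverse, with -0.77 in the input and -0.11 in MeDIP. On chromosome 7, 4 neighbouring regions between 92385748 and 92764437 had a lower input in the inulin group with no overlap, by -0.49 to -0.20, and 3 of them were among the 27.

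**Figure D4:**
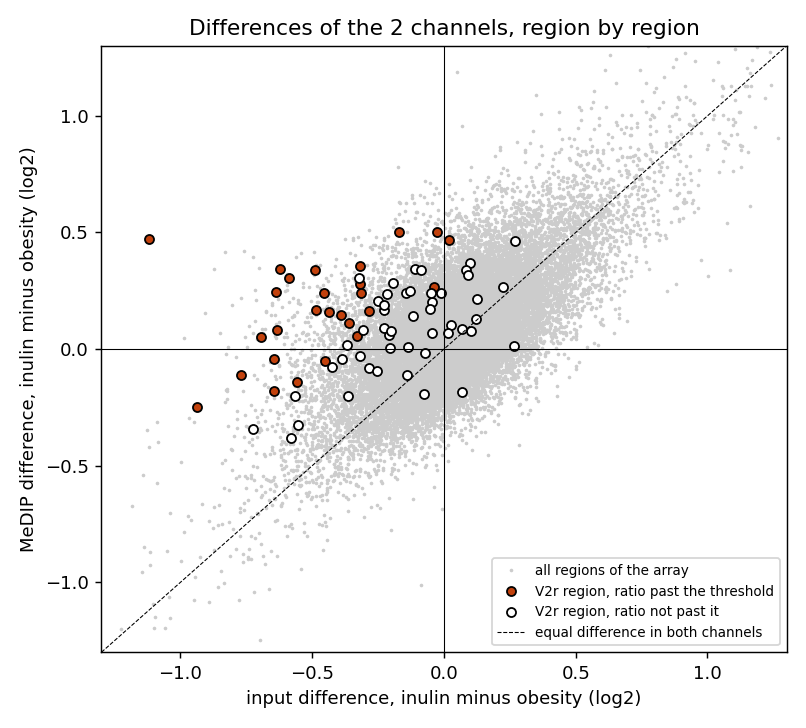
Input difference against MeDIP difference, both inulin minus obesity on the log2 scale, for all regions of the array (grey; those beyond 1.3 in size lie outside the axes) and the 76 V2r regions, filled where the ratio passed the threshold. The filled points lie left of 0 on the input axis in 26 of 27 cases and on both sides of 0 on the MeDIP axis. They were picked for a higher MeDIP over input ratio, which partly sets where they lie.

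The size of the ratio difference varied between classes of positions, formed by the arrays on which each channel was well above background. At the 187 V2r positions with both channels well above background on all 6 arrays, the median ratio was -0.83, -0.79 and -0.63 in the inulin group, against -0.78, -0.97 and -0.91 in the obesity group. The groups overlapped, and the means differed by 0.13. At the 143 positions where the input was above background on all 6 arrays and MeDIP on none, it was -2.26, -2.18 and -1.93 in the inulin group, against -2.73, -3.09 and -2.74 in the obesity group, a gap of 0.73. Over the whole array the gaps of these classes were -0.056 and 0.43. At 160 V2r positions above background in some other combination the gap was 0.71, against 0.17 for such positions of the whole array. Since MeDIP was not well above background at the 143 positions, their ratios set background-level MeDIP readings over measured inputs. By channel, the gap at these positions was -0.26 for the input and 0.0036 for MeDIP, and the groups overlapped in both. Gaps between medians of the channels need not add up to the gap of the ratio. For this class over the whole array the gap was 0.00070 for the input and 0.29 for MeDIP. At 38 further V2r positions neither channel was above background on any array, and no difference is given.

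At single positions the shares were smaller. By limma over all 170019 positions tested, 89 of 525 V2r positions passed as higher in the inulin group, where the background was 5.12%, and 2 passed as lower, where it was 3.08%. Of the 89, MeDIP was not above background on any array at 68, and 78 were probes of 60 bp. Both channels were above background on all 6 arrays at 10 of the 89. The 2 highest differences of these 10 were at region 32 of chromosome 7, given above, and at 94064004 to 94064063 of the same chromosome, where the ratio was -0.39, -0.55 and -0.35 in the inulin group, against -1.72, -2.68 and -1.68 in the obesity group (difference 1.59 ± 0.26 (SE), limma adjusted p = 0.023). Of the 2 lower positions, the one with both channels above background on all 6 arrays lay at 93455134 to 93455179 of chromosome 7, with -1.36, -1.34 and -1.53 in the inulin group, against -0.84, -0.65 and -0.86 in the obesity group (limma adjusted p = 0.030). These 2 positions were named after their values were seen.

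The spread of the whole array moved with the group. The median absolute deviation of the log2 ratio over all probes was 0.995, 1.01 and 1.01 on the inulin arrays, against 1.18, 1.35 and 1.23 on the obesity arrays, and the V2r medians lay further below 0 on the obesity arrays. With the arrays brought to equal spread, 7 V2r regions (9.21%) passed as higher, against 2.15% of all regions. As lower passed 3, against 426 of all 22574 regions, and the median difference was 0.032. Quantile normalization gave 8 higher (10.5%), against 1.11% of all regions, with a median of 0.080. It gave 1 lower, against 246 of all 22574 regions. The values of the authors' deposited table gave 1 higher (1.32%), against 0.970%, and 2 lower, against 348 of all 22574 regions. With only positions above background in both channels on all arrays, 70 regions were left. Of these, 8 passed as higher (11.4%), against 2.84% of all regions, and 1 as lower, against 704 of all 22437 regions. Of these 8, 5 were among the 27, and the median was 0.14. Under that filter 5 of the named regions among the 27 turned negative without passing: regions 14, 16 and 17 of chromosome 17, region 2 of chromosome 5 and region 20 of chromosome 7. Normexp background correction also gave 27 higher, against 4.55% of all regions. Of these, 18 were among the 27, and its median difference was 0.17. The part of the spread, of dim positions and of slide in the ratio difference was not tested.

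**Figure D5:**
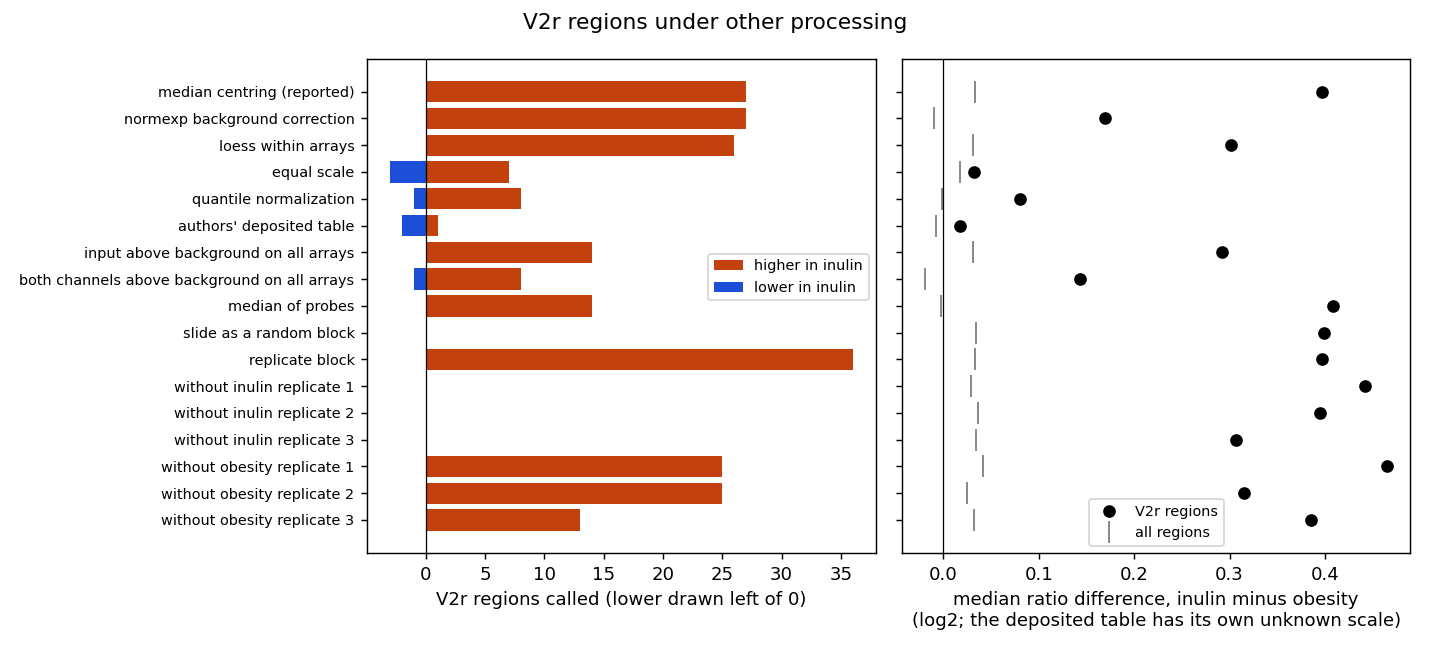
V2r regions past the adjusted threshold (left; higher in inulin drawn right of 0 in orange, lower drawn left of 0 in blue) and the median log2 ratio difference, inulin minus obesity (right), under median centring and under other processing. The 27 higher regions became 7 with equal scale. They became 0 with any inulin array left out, where no region of the whole array passed. The median difference over the V2r regions was above 0 in each setting drawn, but only slightly in some. With equal scale it was 0.032, against 0.018 for all regions, and 50 of 76 were positive. In the authors' deposited table it was 0.018, against -0.0079 for all regions, and 43 of 76 were positive. There the medians of the chromosome 7 and 3 windows were -0.011 and -0.012.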

How the data were processed

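The windows, regions and tests were chosen with earlier results of these data known. Per the file headers, the authors extracted each scan with Feature Extraction 11.0.1.1 (protocol ChIP_1100_Jul11, mm9), giving processed intensity values that were background-subtracted and dye-normalized. The authors' deposited table of the series holds a score per probe of unknown log base, scale and centring, which correlated at 0.87 to 0.91 with the log2 ratio. The log10 ratio that the files also hold, per the file headers, equals that of the processed signals within 0.0001 at 98.5% to 99.6% of spots and was not used. Cy5 held MeDIP and Cy3 input DNA, per the labels' protocol.

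From the intensities, log2 red over green was computed and each array centred on its median, with outlier spots left out (1901 to 4863 of 174638 per array). Probe values were averaged within a region, with values needed on at least 2 arrays of each group. Each channel was treated alike. Inulin was set against obesity by two-sided limma 3.58.1 (lmFit and eBayes, R 4.3.3), adjusted over all regions or positions at 0.05. The fit was also run on simulated data with independent noise, equal spread in both groups and no slide effect. That run checked the code and cannot bear on the calls here, because group and slide coincide and array spread differs by group. The number of arrays limits the precision. Slide was read from shared scan identifiers. Named were the 10 largest differences past the threshold, and per window the extremes of level and of difference in ratio, input and MeDIP. Position classes were formed after the values were seen. Same-numbered arrays correlated at -0.14, 0.28 and 0.33 in their deviations from the group mean, and other pairs at -0.38 to 0.22. With 3 arrays per group these values cannot settle whether the numbers pair the arrays. Promoters came from RefSeq GRCm38.p6.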

Additional observations from a re-analysis of the deposited data

How the results depend on the processing

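V2r regions past the threshold in the ratio, 27 under median centring, numbered 10 with equal scale, 9 with quantile normalization and 3 in the authors' deposited table. They numbered 14 with input above background on all arrays, 9 with both channels above background on all arrays, 14 with the median of probes and 0 with slide as a random block. The V2r share passing as higher was, in the same order, 9.21%, 10.5%, 1.32%, 18.4%, 11.4%, 18.4% and 0%. The share of all regions passing as higher was 2.15%, 1.11%, 0.970%, 4.11%, 2.84%, 2.09% and 0%. Leaving out 1 array gave 0 to 25, and 0 came without an inulin array, where no region of the whole array passed. The replicate block, which treats same-numbered arrays as pairs, gave 36 (47.4%), against 9.45% of all regions passing as higher. Whether these arrays are pairs is not known. The 5 input calls became 3 with quantile normalization, 1 with normexp, 8 with equal scale and 2 with slide as a random block. They became 0 with the replicate block, 1 with input above background, and 0 with any array left out. Regions of the whole array passing as lower in the input, 203 under median centring, numbered 156, 86, 326, 68, 0 and 130 in the same order. With an array left out they numbered 4 to 53. No MeDIP call appeared under any of the settings run. Positions past the threshold, 91 in all, numbered 47 with equal scale, 137 with normexp, 29 with both channels above background, 6 with slide and 14 to 87 with an array left out. The V2r share passing as higher was 6.10%, 23.6%, 11.4%, 1.14% and 2.70% to 15.8% in the same order. The share of all positions was 1.72%, 8.02%, 6.36%, 0.141% and 0.368% to 5.31%. With equal scale 15 of the 47 passed as lower, against 3040 of all 170019 positions. The median difference over V2r positions, 0.34 under median centring, was then -0.018, against 0.018 for all positions, with 256 of 525 positive. Normexp, loess, probes complete on all arrays, gaps of 300 and 1000 bp and array weights gave 21 to 40 ratio calls. For normexp and loess these held 18 and 23 of the 27. In these settings 24.4% to 50% of V2r regions passed as higher, against 4.55% to 18.3% of all regions. With both channels above background the ratio difference turned to -0.22 at region 17, -0.044 at region 14 and -0.047 at region 16 of chromosome 17, -0.39 at region 2 of chromosome 5 and -0.0084 at region 20 of chromosome 7, the last also with input above background. Region 13 of chromosome 7 turned to -0.21 with equal scale and -0.0028 in the authors' deposited table. Apart from the construction of settings with fewer arrays or positions, the cause was not tested. Dim MeDIP signal limits 52 of the 76 regions, in which fewer than 50% of positions were above background on all 6 arrays.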
